A study of Mus musculus with 2 samples.

Results

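The genes described are the receptors for serotonin (Htr genes), dopamine (Drd), noradrenaline and adrenaline (Adra and Adrb) and acetylcholine (Chrm for the muscarinic and Chrn for the nicotinic class). They were picked by symbol, and 49 of the 33696 genes in the deposited files carry such a symbol: 14 serotonin, 5 dopamine, 9 adrenergic, 5 muscarinic and 16 nicotinic receptor genes. Transcripts were counted in 2 droplet libraries (10x Genomics 3′ chemistry, in which each captured transcript carries a unique molecular identifier, UMI), 1 library per treatment. Both came from Shank3-/- mice, which lack a scaffold protein of excitatory synapses. The vehicle library (labelled MOCK) came from mice given the carrier alone, and the fluconazole library from mice given fluconazole, an azole antifungal, in the drinking water for 2 weeks. By the sample labels the tissue is brain, and by the design text it is prefrontal cortex. The extraction text describes nuclei from frozen tissue, whereas the design text speaks of fresh tissue with cells and nuclei together, so the droplets are called barcodes here. How many mice went into a library, their age and which part of Shank3 is deleted are not given in the sources used here, and no wild-type library enters the comparison.

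Most of these genes encode receptors that act through G proteins. Gs-coupled members (Drd1, Drd5, Htr4, Htr6, Htr7 and the beta-adrenergic receptors) raise cyclic AMP, Gi-coupled members (Drd2 to Drd4, the Htr1 group, Adra2 genes, Chrm2 and Chrm4) lower it, and Gq-coupled members (the Htr2 group, Adra1 genes, Chrm1, Chrm3 and Chrm5) activate phospholipase C. The nicotinic subunits, with Htr3a and Htr3b, instead form ion channels of several subunits. In the frontal cortex the transmitters are released largely by fibres from brainstem and basal forebrain nuclei. Whether cells that release them lay within this dissection was not tested.

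Sequence upstream of the transcription start was read for the members from the RefSeq table of mouse promoters (build GRCm38.p6), which held 37 of the 49 members with 42 listed starts. The 250 bases just before the start are shown for the 4 genes on whose levels the results below turn most: Drd1 and Drd2, which divided the spiny neurons, Htr2c, which was lower in upper-layer neurons of the fluconazole library, and Chrm2, which was highest in near-projecting neurons. Capitals mark the GC box GGGCGG or, where it lies on the other strand, its complement CCGCCC.
Drd1: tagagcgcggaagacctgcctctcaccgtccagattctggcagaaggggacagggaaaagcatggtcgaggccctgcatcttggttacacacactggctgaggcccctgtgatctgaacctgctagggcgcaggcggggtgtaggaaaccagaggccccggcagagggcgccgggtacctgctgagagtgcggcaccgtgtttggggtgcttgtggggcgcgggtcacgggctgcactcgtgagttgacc
Drd2: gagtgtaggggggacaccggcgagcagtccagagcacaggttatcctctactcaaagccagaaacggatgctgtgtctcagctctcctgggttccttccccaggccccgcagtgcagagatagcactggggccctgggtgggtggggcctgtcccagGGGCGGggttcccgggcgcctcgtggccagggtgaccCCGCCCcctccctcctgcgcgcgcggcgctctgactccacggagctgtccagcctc
Htr2c: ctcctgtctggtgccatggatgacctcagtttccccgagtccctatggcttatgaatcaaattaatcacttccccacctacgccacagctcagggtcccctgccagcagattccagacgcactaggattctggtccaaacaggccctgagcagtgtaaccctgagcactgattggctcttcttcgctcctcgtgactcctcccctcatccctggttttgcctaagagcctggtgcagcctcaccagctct
Chrm2: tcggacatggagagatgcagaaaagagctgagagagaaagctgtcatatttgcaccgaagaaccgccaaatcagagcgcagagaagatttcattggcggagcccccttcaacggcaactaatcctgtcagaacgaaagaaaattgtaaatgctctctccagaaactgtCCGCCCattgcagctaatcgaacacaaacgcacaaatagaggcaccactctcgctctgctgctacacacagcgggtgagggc
The Drd1 window (ENSMUSG00000021478, chr13:54055659-54055908, minus strand, first of 2 listed starts) was 64.0% G or C and held no GC box. The Drd2 window (ENSMUSG00000032259, chr9:49340153-49340402, plus strand) was 68.8% G or C with 2 GC boxes, 1 on each strand. Htr2c (ENSMUSG00000041380, chrX:146962263-146962512, plus strand) had 55.6% G or C, no GC box and 1 CCAAT motif. Chrm2 (ENSMUSG00000045613, chr6:36387834-36388083, plus strand) had 50% G or C, 1 GC box and 1 CCAAT motif. A GC box on either strand stood in 20 of the 42 member windows (47.6%), against 32.7% of all 32851 windows in the table. TATAAA stood in 4.76% of the member windows and 12.4% of all, CCAAT in 26.2% and 33.8%, the E-box CANNTG in 54.8% and 66.2%, and the TGACG core of cyclic AMP response elements in 14.3% and 17.8%. The median G and C content was 59.4% for members and 52.4% for all. These are matches of letters on both strands, and a CANNTG or TGACG match may overlap another motif.

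The vehicle library held 12929 barcodes with 68288360 UMIs after filtering, and the fluconazole library 10614 barcodes with 68960830 UMIs. Median depth was 4332 UMIs per barcode in the vehicle library and 5259 in the fluconazole library. Barcodes were clustered without any of the 49 receptor genes and named by markers, and each name means that the barcodes are like that cell type by its markers. The 22 subclasses compared had at least 50 barcodes in each library (51 to 3177), of which 12 were neurons, and 5 smaller or mixed groups are described by level only. Markers of cortical projection neurons were present, but so were medium spiny neurons (316 vehicle and 201 fluconazole barcodes) and migrating neuroblasts (435 and 170), which belong to the striatum and to the migratory stream beneath the cortex. Shank3 itself was counted at 42.6 to 135 CPM (UMIs scaled to a common total) in the neuron subclasses, so 3′ counts did not check the genotype. Levels below are CPM within a subclass and library, and intervals are exact 95% intervals for counting error alone. With 1 library per treatment no test between treatments was possible, and no p-value is given.

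Receptor transcripts were concentrated in neurons. Summed over the 49 genes, the level was 887 to 2454 CPM in the 12 neuron subclasses. In the 10 other subclasses it ran from 28.9 CPM in oligodendrocytes of the fluconazole library to 611 CPM in oligodendrocyte precursors of the vehicle library. A single gene, Chrm3, gave 52.4% of all 99835 receptor UMIs and 91.8% of the muscarinic ones, and Htr1f gave 52.1% of the serotonin receptor UMIs. Counts of 3′ ends depend on each gene's priming sites and were not scaled by length, so levels are compared between subclasses for 1 gene and not between genes. The muscarinic sum was highest in layer 2/3 neurons, at 1933 CPM (vehicle) and 1676 CPM (fluconazole), with layer 6b neurons, described by level only, at 1640 and 1674 CPM. The serotonin sum was highest in near-projecting neurons, at 1140 and 1040 CPM. The dopamine sum was highest in indirect pathway spiny neurons, at 519 and 567 CPM. Vip interneurons led the nicotinic sum of the compared subclasses with 278 and 367 CPM, and Lamp5 interneurons, described by level only, had 470.1 and 345 CPM. Among non-neuronal cells the adrenergic sum stood out: fibroblasts held 217 and 291 CPM, and astrocytes 208 and 188 CPM, against 80.1 and 75.8 CPM in layer 2/3 neurons. Some neuron groups had sums in the same range or higher, with Vip interneurons at 275.5 and 367 CPM and layer 5 neurons at 198 and 201 CPM. Lamp5 interneurons, described by level only, had 677 and 656 CPM.

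**Figure D1:**
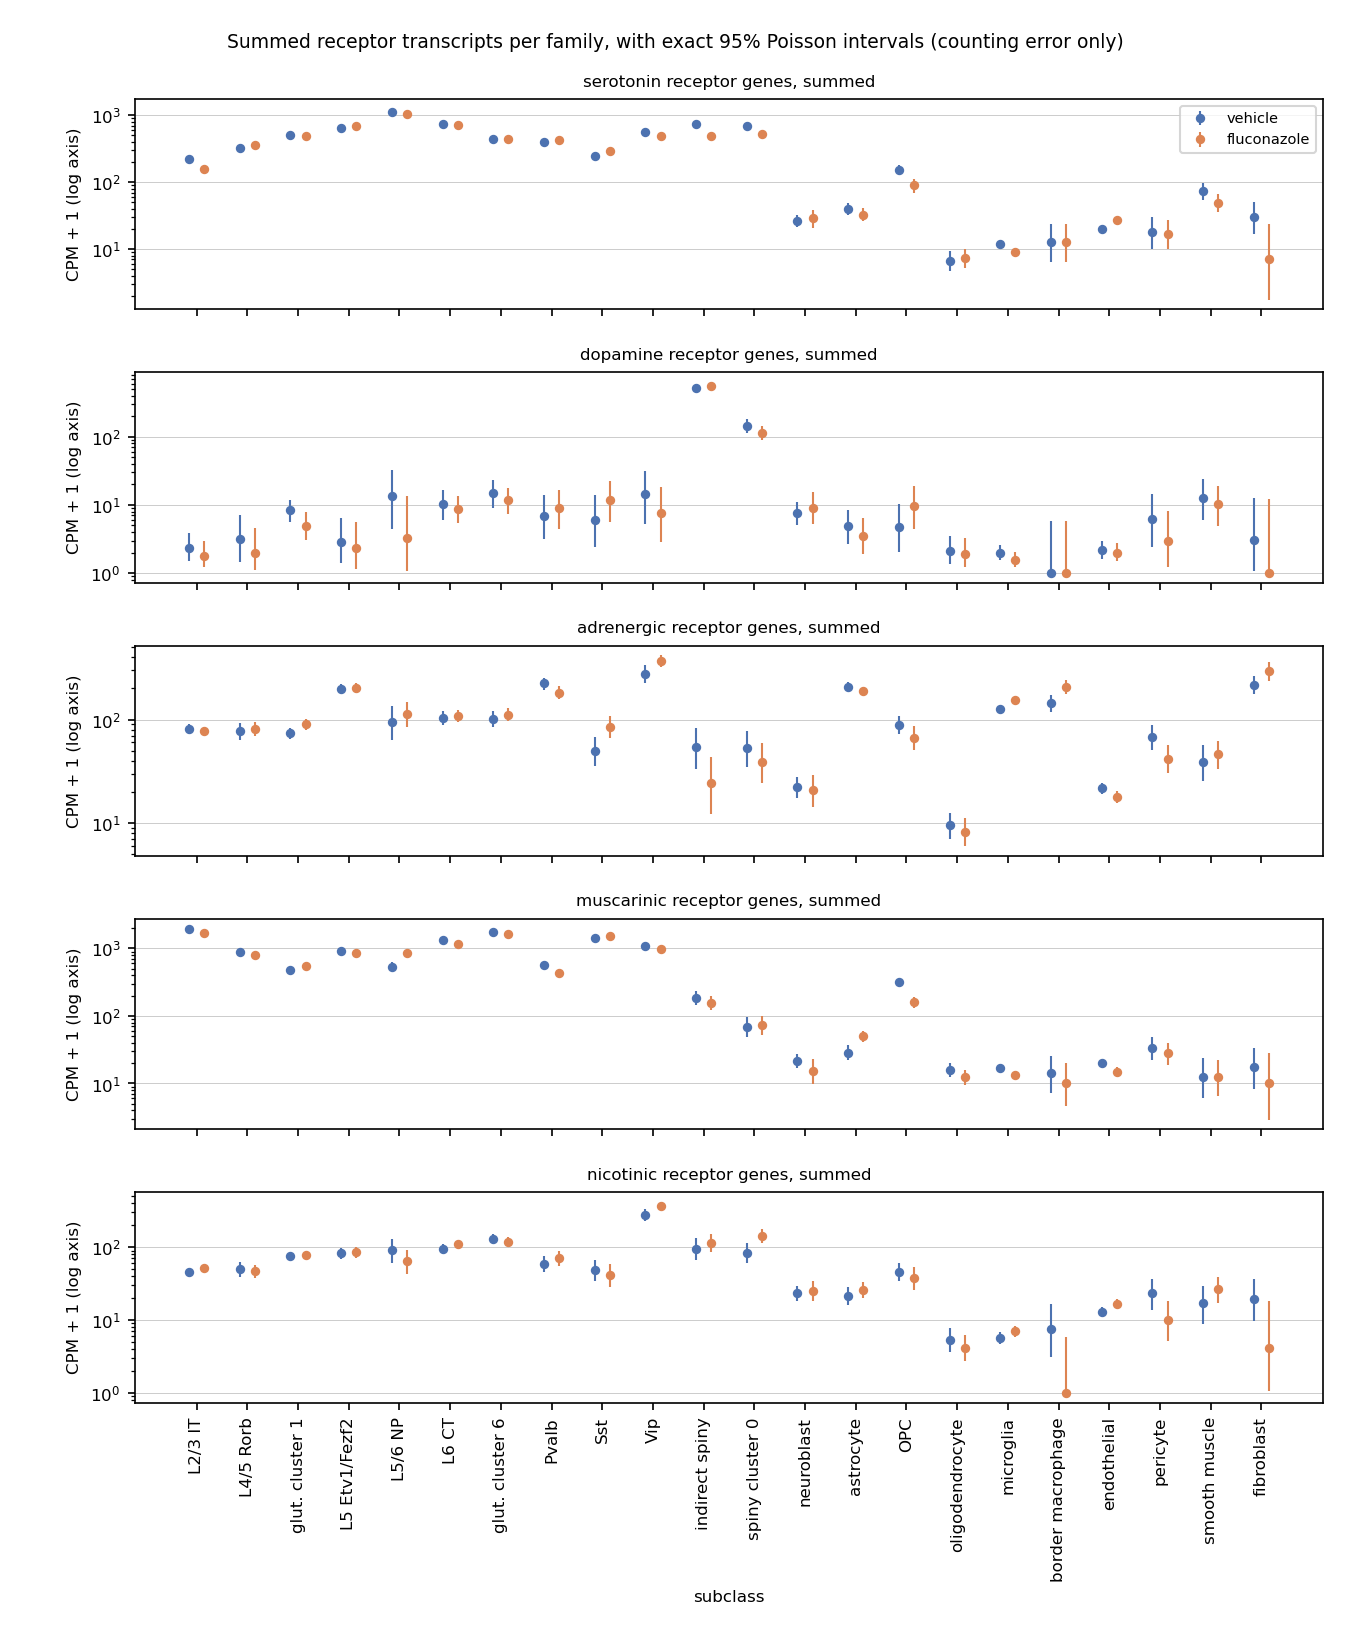
Summed CPM plus 1 (log axis) of the genes of each receptor family in the 22 compared subclasses, with blue points for the vehicle library and orange points for the fluconazole library. Bars are exact 95% Poisson intervals for counting error. The dopamine sum reaches 519 and 567 CPM in indirect pathway spiny neurons, and the muscarinic sum 1933 and 1676 CPM in layer 2/3 neurons.

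At gene level, 17 of the 49 members reached 100 UMIs over both libraries in at least 1 subclass, of which 16 are described one by one, whereas the other 32 had 2798 UMIs in all. For 13 of the 17 the subclass with the highest level was the same in both libraries, and for 9 of these the interval of the highest subclass was clear of the second in both. The genes without a shared highest subclass were Htr2b, Htr7, Adra1a and Chrm1, all with several subclasses close together.

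**Figure D2:**
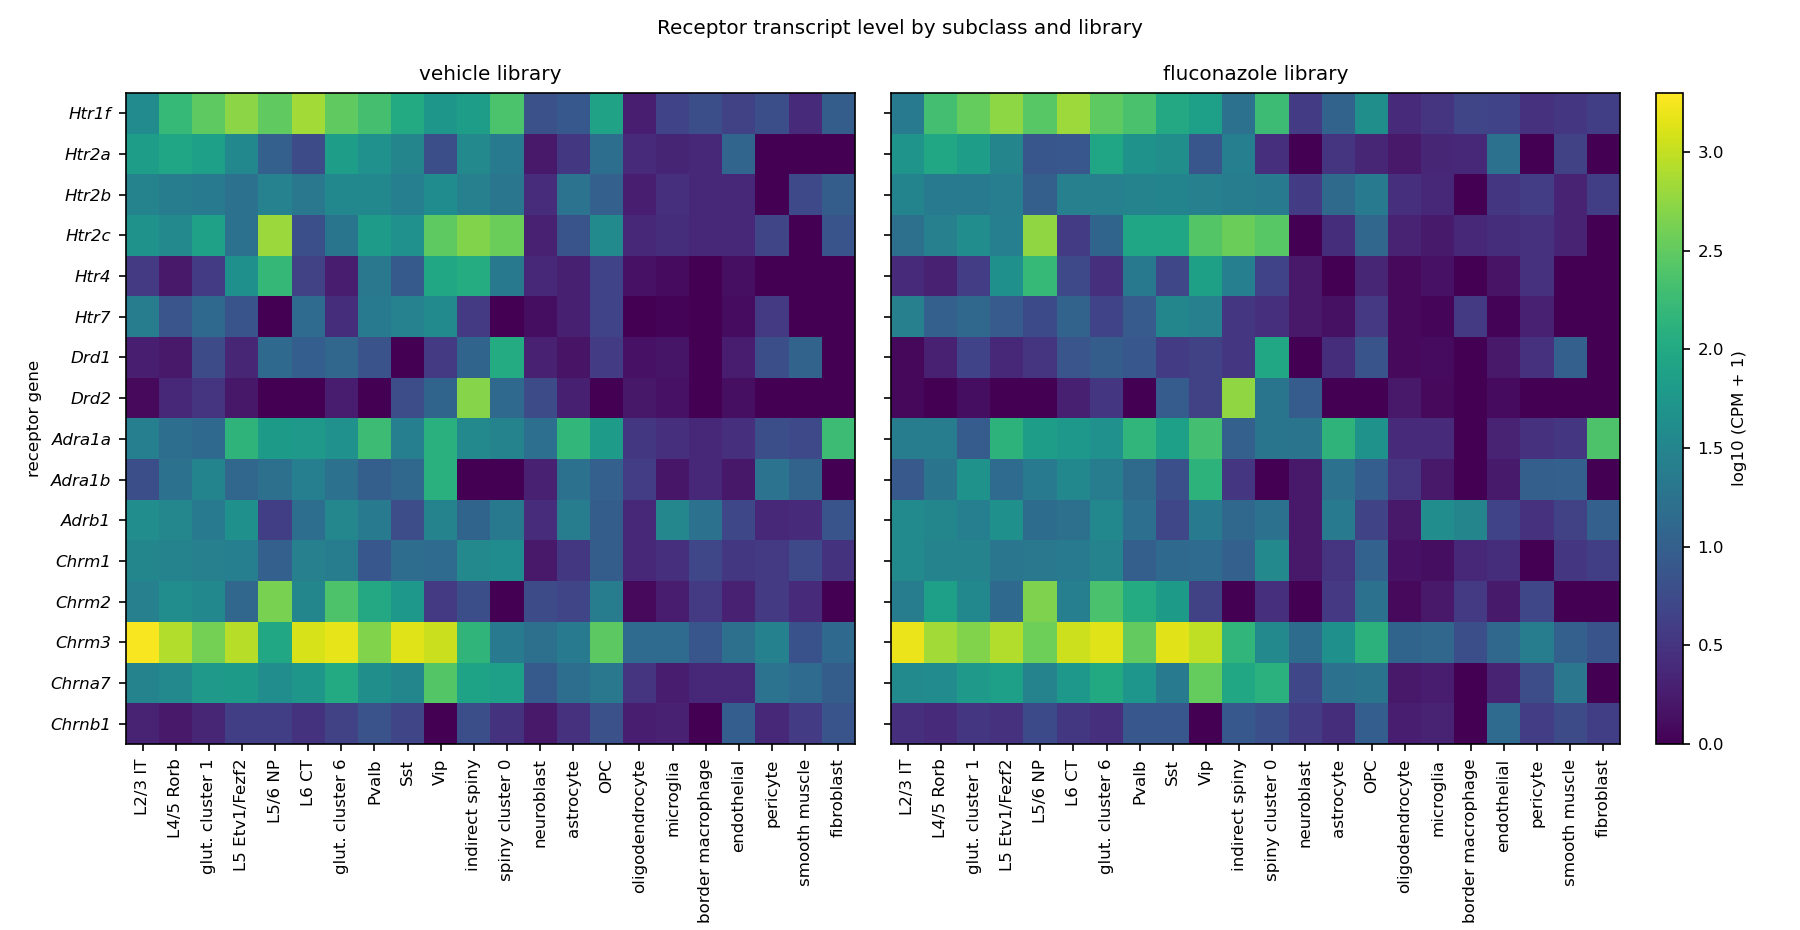
Level of 16 of the 17 receptor genes with at least 100 UMIs in a subclass (rows) in the 22 compared subclasses (columns), as log10 of CPM plus 1, with the vehicle library on the left and the fluconazole library on the right. Chrm3 is brightest in layer 2/3 neurons (1873 and 1614 CPM), and Drd2 is bright in indirect pathway spiny neurons alone (495 and 562 CPM).

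Serotonin receptor genes differed in the layers of their highest levels. Htr1f, a Gi-coupled receptor and the target of lasmiditan, was highest in layer 6 corticothalamic neurons at 685 CPM [644 to 729] in the vehicle library and 648 CPM [613 to 683] in the fluconazole library. Layer 5 neurons with Etv1 or Fezf2 followed at 528 and 548 CPM, clear of the first in both libraries, and layer 2/3 neurons had only 38.4 and 22.9 CPM. A UMI of Htr1f was seen in 88.6% of vehicle and 92.4% of fluconazole corticothalamic barcodes, against 0.690% and 1.54% of oligodendrocytes, which should lack it. Median depth was 6172 and 8806 UMIs in the corticothalamic barcodes and 7354 and 8905 UMIs in the oligodendrocytes. Htr1f was over 100 CPM in 9 (vehicle) and 8 (fluconazole) of the compared subclasses. In layer 4/5 Rorb neurons it made up 49.6% and 56.1% of a serotonin sum of 329 and 363 CPM. Htr2a, the Gq-coupled receptor bound by psychedelic drugs, was highest in layer 4/5 Rorb neurons, at 89.9 CPM [75.0 to 107] and 92.3 CPM [79.5 to 107]. Corticothalamic neurons had 4.67 and 6.81 CPM of Htr2a. The second subclass of Htr2a, at 71.4 CPM (vehicle, the unnamed glutamatergic cluster 1 with Scn7a and Il1rapl2) and 86.7 CPM (fluconazole, the unnamed cluster 6 with Slc26a4 and Sulf1), overlapped the first within the intervals.

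Htr2c, the Gq-coupled receptor whose transcript undergoes RNA editing, was highest in layer 5/6 near-projecting neurons at 634 CPM [550 to 727] and 570.5 CPM [502.5 to 645]. Indirect pathway spiny neurons followed at 466 and 357 CPM, then the unnamed spiny cluster 0 at 359 and 279 CPM and Vip interneurons at 305 and 257 CPM. Among the compared subclasses the same 4 thus held the first 4 places in both libraries. Layer 6 corticothalamic neurons, which neighbour the near-projecting neurons, had 5.34 and 2.92 CPM. In glutamatergic cluster 15, described by level only, Htr2c made up 38.4% and 51.8% of a serotonin sum of 484 and 526 CPM. Htr2c was seen in 60.3% and 60.8% of near-projecting barcodes and in 0.787% and 0.411% of microglia, at median depths of 4725 and 6480 UMIs in the former and 4594 and 5998 UMIs in the latter.

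Htr4, a Gs-coupled receptor, shared its first place with Htr2c: near-projecting neurons had 158 CPM [118 to 208] and 159.5 CPM [124.5 to 201]. Vip interneurons had 95.4 and 73.3 CPM and layer 5 neurons 43.9 and 43.7 CPM. Indirect pathway spiny neurons, with 42 UMIs in the vehicle library and 11 in the fluconazole library, had 111 and 25.6 CPM, below the 100 UMIs set for a comparison of treatments. Htr7, also Gs-coupled, stood at 37.1 and 26.7 CPM in Vip interneurons, 28.1 and 31.4 CPM in Sst interneurons and 23.0 and 26.4 CPM in layer 2/3 neurons, a set whose intervals overlapped. Htr2b was spread over the neurons, for instance at 39.7 and 26.7 CPM in Vip interneurons, 33.8 and 28.7 CPM in Pvalb interneurons and 29.1 and 30.1 CPM in layer 2/3 neurons. Htr2b overlaps Psmd1, a proteasome subunit gene expressed in all cells, on the other strand. The strand used in counting is not stated, and whether reads of Psmd1 (130 and 110 CPM in Vip interneurons) enter the Htr2b count was not tested.

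Dopamine receptor genes divided the spiny neurons of the dissection and were sparse elsewhere. Drd2 was counted at 495 CPM [427 to 571] and 562 CPM [493 to 637.5] in indirect pathway spiny neurons, which had been named on 3 of the 5 markers Penk, Adora2a, Gpr6, Gpr52 and Sp9. In the unnamed spiny cluster 0, which passed 2 direct pathway markers, Drd2 was at 12.5 and 18.1 CPM, and in layer 2/3 neurons 1 UMI was counted per library. Drd1 had the opposite order, with 106 CPM [79.2 to 140] and 92.3 CPM [68.7 to 121] in spiny cluster 0 and 10.5 and 2.33 CPM in indirect pathway spiny neurons. Outside the spiny neurons Drd1 was seen in corticothalamic neurons at 8.68 and 6.32 CPM (13 UMIs in each library), in cluster 6 at 11.2 and 8.32 CPM, and in layer 6b neurons, a group of 20 and 33 barcodes, at 63.1 and 30.1 CPM (9 and 15 UMIs). These counts are too small to order the groups, and layer 2/3 neurons had 4 and 1 UMIs of Drd1.

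The spiny neurons include 145 vehicle and 73 fluconazole barcodes that could not be split. Some of these came from clusters with markers of endothelial cells, microglia or astrocytes. Taking all spiny neurons together, a UMI of Drd1 alone was seen in 24.7% of 316 vehicle barcodes and 32.3% of 201 fluconazole barcodes, and of Drd2 alone in 32.3% and 38.8%. Both were seen in 2.22% [0.895 to 4.51] and 1.49% [0.309 to 4.30], and neither in 40.8% and 27.4%. When every barcode was thinned to 1500 UMIs, both were seen in 0.322% of 311 vehicle barcodes and in 0 of 197 fluconazole barcodes, which allows up to 1.86% (exact binomial). Among indirect pathway spiny barcodes Drd2 alone was seen in 72.6% and 92.1%, beside a median depth of 4286 and 6903 UMIs, and at 1500 UMIs in 45.0% and 54.8%. Drd1 and Drd2 thus rarely met in 1 barcode, in either library. Drd3, a Gi-coupled receptor of the ventral striatum named here after its values were seen, had 27.1 and 3.62 CPM (13 and 2 UMIs) in spiny cluster 0 and 32.5 and 18.3 CPM (45 and 16 UMIs) in the spiny barcodes that could not be split.

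**Figure D3:**
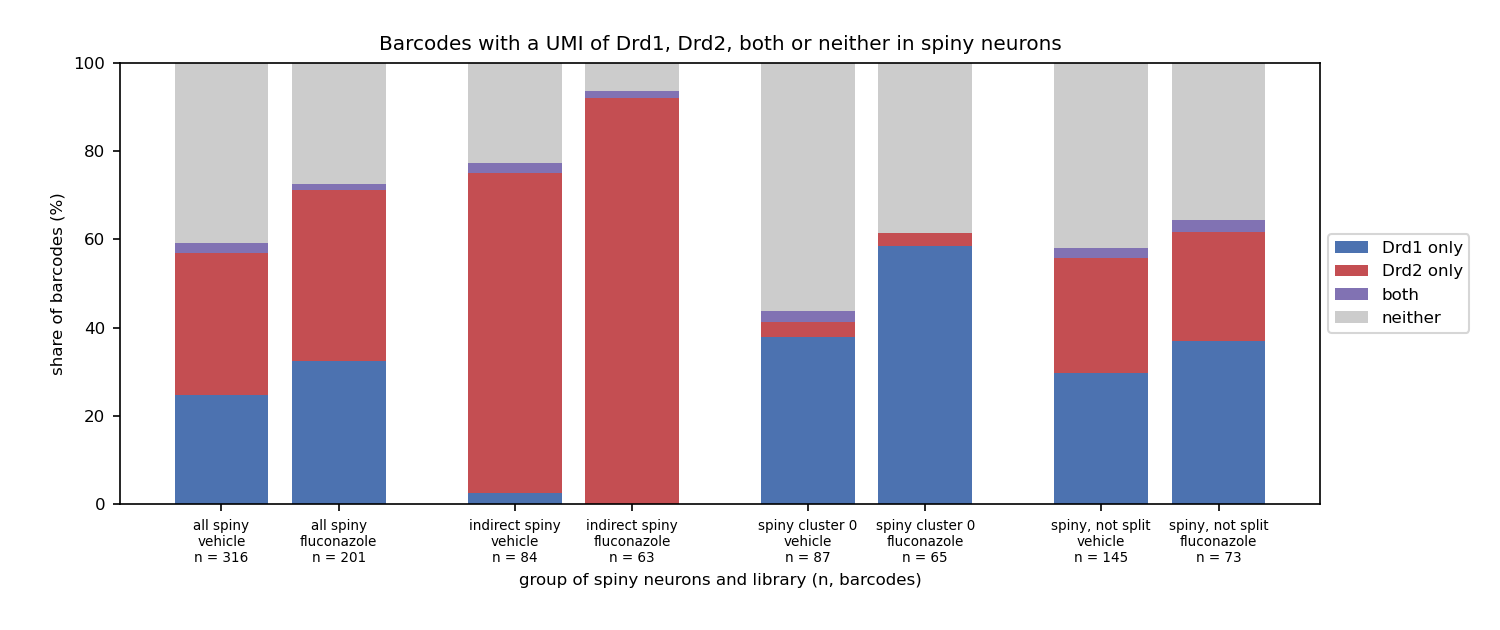
Share of barcodes (%) with a UMI of Drd1 alone (blue), Drd2 alone (red), both (purple) or neither (grey) in all spiny neurons and in each of their groups, 1 bar per library, with the number of barcodes under each bar. The purple share is 2.22% (vehicle) and 1.49% (fluconazole) of all spiny barcodes.

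Among the adrenergic genes, Adrb1, the Gs-coupled beta-1 receptor, was spread over neurons and microglia: layer 5 neurons had 44.5 and 45.0 CPM, layer 2/3 neurons 41.0 and 37.0 CPM, and microglia 32.2 and 40.4 CPM, with overlapping intervals at the top.

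Adra1a, a Gq-coupled receptor, was shared between some interneurons, layer 5 neurons, fibroblasts and astrocytes. Pvalb interneurons had 185 CPM [159 to 213] and 148 CPM, fibroblasts 183 and 238 CPM [188 to 298], and astrocytes 153 and 140 CPM. Vip interneurons had 124.5 and 205 CPM, whereas Sst interneurons had an adrenergic sum of only 48.5 and 84.5 CPM. In layer 5 neurons Adra1a made up 69.5% and 67.6% of an adrenergic sum of 198 and 201 CPM. Lamp5 interneurons, described by level only because the fluconazole library held 34 of them, exceeded all compared subclasses with 598 and 574 CPM (182 and 133 UMIs). Free RNA was estimated at 35.6% and 31.9% of the UMIs of fibroblasts, the highest share of any subclass, and astrocyte markers summed to 3219 and 3330 CPM in them. With free RNA subtracted as a profile of the whole library, fibroblasts were highest in Adra1a among the compared subclasses in both libraries. The part of astrocyte RNA in the fibroblast value was not tested. Adra1b was clearest in Vip interneurons at 122 CPM [89.2 to 163] and 137 CPM [109 to 170], 4.05 and 2.85 times the second subclass, glutamatergic cluster 1. Adra2a, the Gi-coupled autoreceptor of noradrenaline neurons, was highest in pericytes, at 40.5 and 26.0 CPM (31 and 26 UMIs), and was named after its values were seen. In the fluconazole library fibroblasts had 24.8 CPM [10.7 to 48.8] of Adra2a, which overlaps the pericytes.

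Muscarinic receptor transcripts were led by Chrm3 in nearly every neuron subclass. Among the compared subclasses, layer 2/3 neurons had 1873 CPM [1834 to 1913] and 1614 CPM [1580 to 1650]. They were followed by glutamatergic cluster 6 at 1501 and 1372 CPM, Sst interneurons at 1362 and 1431 CPM, and corticothalamic neurons at 1273 and 1129 CPM. Layer 6b neurons, by level only (20 and 33 barcodes), had a muscarinic sum of 1640 and 1674 CPM, of which Chrm3 made up 92.7% and 93.3%. Pvalb interneurons stood below Sst and Vip interneurons in Chrm3, at 470.5 and 320 CPM, Lamp5 interneurons, by level only, had 378 and 237.5 CPM, and near-projecting neurons had 93.2 and 371 CPM. Chrm3 was seen in 97.8% and 99.5% of layer 2/3 barcodes and in 9.66% and 9.67% of oligodendrocytes. Chrm3 spans 485362 bases and overlaps Gm47405 and Gm47404 on its own strand and Gm26861 on the other. In layer 2/3 neurons these were counted at 25.0 CPM or less each.

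Near-projecting neurons, among the lower neurons in Chrm3, were the highest in Chrm2. Chrm2, the Gi-coupled M2 receptor, had 435 CPM [366 to 513] and 456 CPM [395 to 523] there, 1.83 and 2.06 times its second subclass, cluster 6, with 237 and 221 CPM. Pvalb interneurons came next at 97.3 and 107 CPM, and Vip interneurons had 1 and 2 UMIs. Chrm2 alone, without Chrm1, was seen in 63.8% and 62.7% of near-projecting barcodes. The noncoding gene 9330158H04Rik overlaps Chrm2 on the other strand and was among the leading genes of the near-projecting cluster, at 93.2 and 65.1 CPM, so with the strand unstated part of the Chrm2 count there could belong to it.

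Chrm1, the Gq-coupled M1 receptor, had no subclass clear of the others. Spiny cluster 0 had 39.6 and 34.4 CPM, layer 2/3 neurons 32.1 and 37.4 CPM, and layer 4/5 Rorb neurons 28.8 and 29.3 CPM, all within overlapping intervals. In layer 2/3 barcodes Chrm1 with Chrm3 was seen in 21.7% and 31.1%, Chrm3 without Chrm1 in 76.1% and 68.4%, and Chrm1 without Chrm3 in 0.184% and 0.458%. Chrm4, the Gi-coupled receptor usually described in direct pathway spiny neurons, had 16 and 8 UMIs in the whole of each library, and Chrm5 had 1 and 0; both were named after their values were seen.

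The nicotinic genes were led by Chrna7, the subunit that forms channels by itself, with 67.1% of the family's UMIs. Vip interneurons had 257 CPM [208 to 314] and 332 CPM [287 to 381] of Chrna7, 2.46 and 2.62 times the second subclass (cluster 6 in the vehicle and spiny cluster 0 in the fluconazole library). Lamp5 interneurons, described by level only, had 424 and 328 CPM, so both of these interneuron groups exceeded Pvalb (42.7 and 52.5 CPM) and the layer 2/3 neurons. Chrnb1, the beta subunit of the muscle receptor, was highest in endothelial cells at 8.70 CPM [7.05 to 10.6] and 13.2 CPM [11.2 to 15.4], with 97 and 160 UMIs, and other subclasses overlapped it. Chrna5, an accessory subunit known in layer 6, was named after its values were seen, as were Chrna4 and Chrnb2. Corticothalamic neurons had 24 and 46 UMIs of Chrna5, 16.0 and 22.4 CPM, near-projecting neurons 18.6 and 13.5 CPM (6 UMIs in each library) and Vip interneurons 15.9 and 15.0 CPM, none clear of the others, against 1 and 0 UMIs in layer 2/3 neurons. Its partner Chrna4 had 8.68 and 15.1 CPM in corticothalamic neurons and 18.6 and 4.49 CPM (6 and 2 UMIs) in near-projecting neurons. Chrnb2 was highest in migrating neuroblasts at 12.5 and 15.6 CPM among the compared subclasses, only 1.04 times the second in the vehicle library and 1.675 times in the fluconazole library. Chrnb2 overlaps the gene Adar on the other strand.

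The remaining members were sparse, with 1 to 539 UMIs each. All that are named here were named after their values were seen. Htr1b, a Gi-coupled receptor and triptan target on vessels, was highest in smooth muscle cells at 65.3 CPM [47.6 to 87.4] and 39.2 CPM [27.1 to 54.7]. It was not clear of the next subclass in either library, spiny cluster 0 at 43.8 CPM [27.1 to 66.9] (vehicle) and indirect pathway spiny neurons at 23.3 CPM [11.2 to 42.9] (fluconazole). Htr3a, the channel subunit, was highest in migrating neuroblasts at 13.2 and 19.0 CPM (40 and 28 UMIs) and in Vip interneurons at 7.95 and 16.7 CPM (3 and 10 UMIs). Htr1a, the main Gi-coupled receptor of cortical pyramidal cells by textbook accounts, had 27 and 17 UMIs in all. Chrm5, Drd4 and Chrnd had 1, 2 and 1 UMIs in the vehicle library and 0 in the fluconazole library, where a count of 0 does not show absence.

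Between treatments, most receptor pairs lay within 1.5-fold. Of 88 pairs of receptor gene and subclass with at least 100 UMIs over both libraries, covering all 17 genes and 19 subclasses, 43 were higher and 45 lower in the fluconazole library. The median log2 ratio (fluconazole over vehicle) was -0.01, and over all 108861 gene and subclass pairs it was 0.00018. A difference of at least 1.5-fold was seen in 7 pairs that were higher and 5 that were lower, 12 in all (13.6%), in 9 subclasses. Over all genes tested in the same way the shares were 2.08% higher, 2.58% lower and 4.66% either way. Sparse pairs pass such a fold more easily: under 300 UMIs the share over all genes was 6.98% and among receptor pairs 9 of 49 (18.4%), and with 300 UMIs or more 2.11% and 3 of 39 (7.69%). Since pairs of 1 gene, or of 1 subclass, share their source, these shares are a description and no test.

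**Figure D4:**
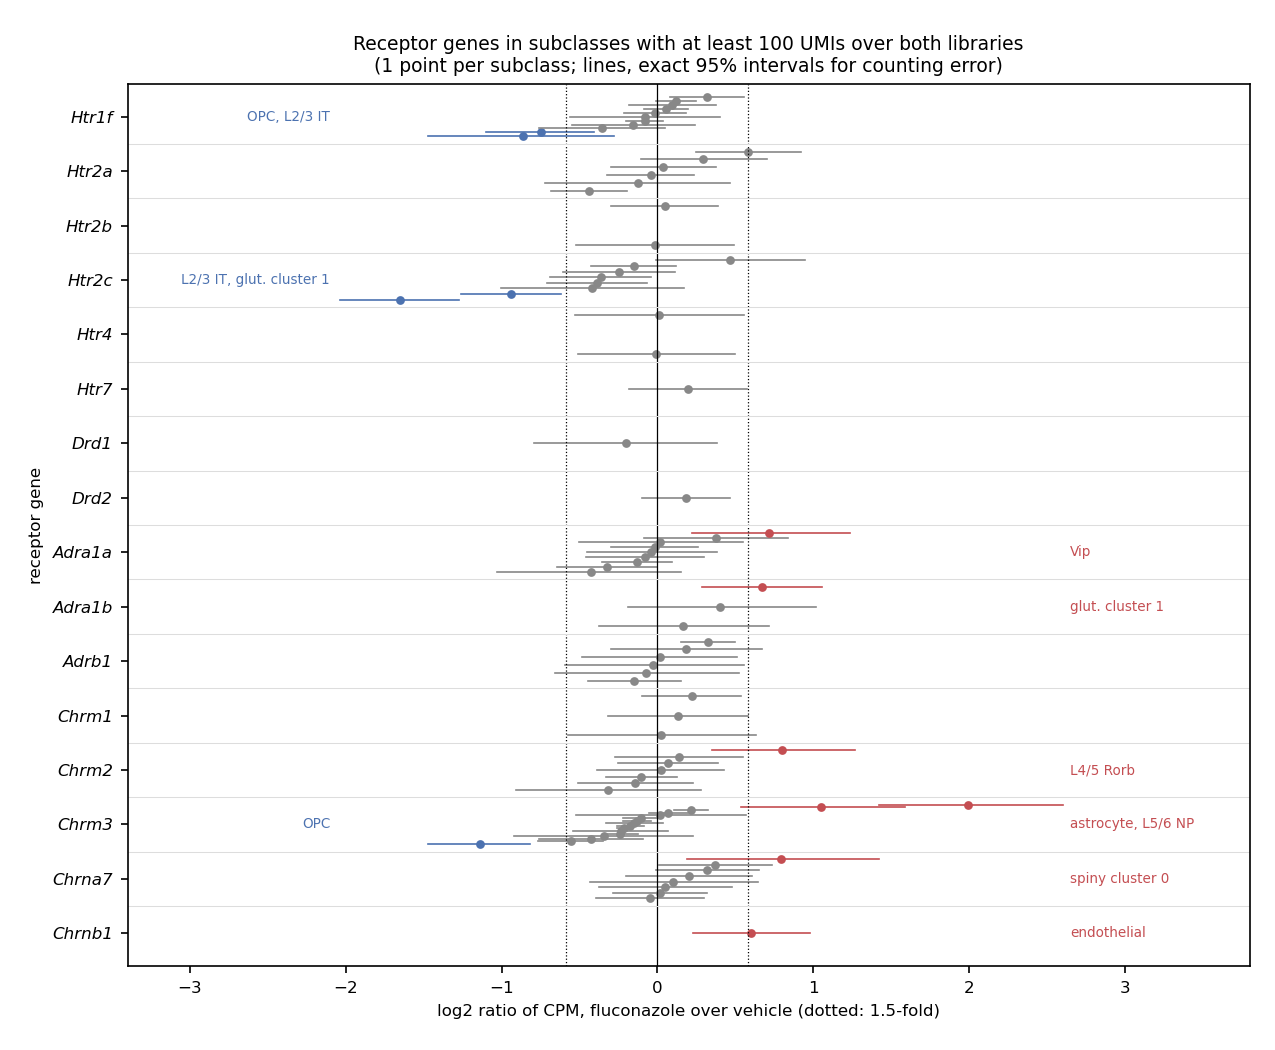
Log2 ratio of CPM, fluconazole over vehicle, for pairs of receptor gene and subclass with at least 100 UMIs (16 of the 17 genes), 1 point per subclass in the row of its gene, with exact 95% intervals for counting error and dotted lines at 1.5-fold. Red points (7) are at least 1.5-fold higher and blue points (5) at least 1.5-fold lower, with their subclasses named at the side in the order of the ratios, lowest first.

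The largest lower value was that of Htr2c in layer 2/3 neurons. It had 224 UMIs and 48.6 CPM [42.5 to 55.4] in the vehicle library and 80 UMIs and 15.5 CPM [12.3 to 19.3] in the fluconazole library, 3.14-fold lower (log2 ratio -1.65 [-2.04 to -1.28]). In layer 2/3 neurons 2.75% of all genes tested were lower by 1.5-fold. A UMI was seen in 19.3% of 543 vehicle barcodes [16.1 to 22.9] and in 9.15% of 437 fluconazole barcodes [6.62 to 12.3], although the fluconazole barcodes were deeper, and at 1500 UMIs per barcode in 4.42% and 2.06%. The layer 2/3 subclass was made of 2 neuron clusters, 0 and 9, and Htr2c was lower in both: 32.0 CPM against 12.3 CPM in cluster 0 (log2 ratio -1.39 [-1.90 to -0.89]) and 103 CPM against 27.8 CPM in cluster 9 (-1.89 [-2.52 to -1.30]). The barcode with the most Htr2c held 12 of the 224 vehicle UMIs and 14 of the 80 fluconazole UMIs, and without these barcodes the log2 ratio was -1.84.

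Htr2c was also lower in glutamatergic cluster 1, with 244 UMIs and 77.4 CPM against 123 UMIs and 40.4 CPM (log2 ratio -0.94 [-1.26 to -0.62]), where 2.55% of all genes were lower by 1.5-fold. Here the share of barcodes with a UMI was 29.7% and 27.5%, and the mean over barcodes gave a smaller log2 ratio of -0.58. The subclasses with the highest Htr2c did not reach 1.5-fold: near-projecting neurons had a log2 ratio of -0.15 [-0.42 to 0.12], indirect pathway spiny neurons of -0.39 and spiny cluster 0 of -0.36 [-0.69 to -0.04]. Vip interneurons had -0.25 [-0.61 to 0.11]. Pvalb interneurons, at 64.5 and 89.2 CPM, and Sst interneurons, under 100 UMIs at 45.9 and 85.9 CPM, lay on the other side. So did glutamatergic cluster 15, described by level only, with 111 vehicle and 25 fluconazole barcodes. The difference of these ratios between subclasses was not tested.

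**Figure D5:**
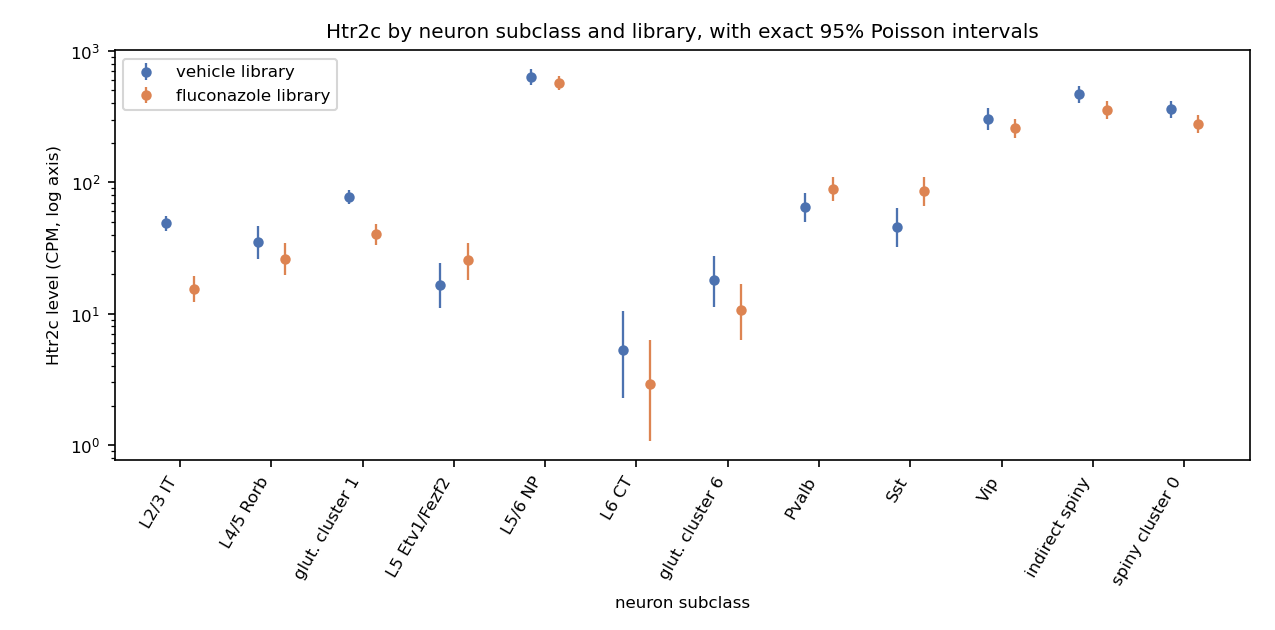
Htr2c level (CPM, log axis) in the 12 neuron subclasses, with blue points for the vehicle library and orange points for the fluconazole library and bars for exact 95% Poisson intervals. The intervals of the libraries are apart in layer 2/3 neurons (48.6 and 15.5 CPM) and glutamatergic cluster 1 (77.4 and 40.4 CPM), lower with fluconazole, and in Sst interneurons (45.9 and 85.9 CPM), higher.

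Htr1f, the other serotonin receptor below the fold in layer 2/3 neurons, had 177 UMIs (38.4 CPM) and 118 UMIs (22.9 CPM), a log2 ratio of -0.75 [-1.1 to -0.4]. The shares of barcodes with Htr1f were close, 17.7% and 17.6%, 1 vehicle barcode held 23 of the 177 UMIs, and with barcodes thinned to 1500 UMIs the log2 ratio was -0.04, from 23 and 18 UMIs. In oligodendrocyte precursors Htr1f had 86 and 35 UMIs, 79.1 and 43.6 CPM (-0.86 [-1.47 to -0.28]), and -0.25 with thinned barcodes (16 and 9 UMIs). Where Htr1f was highest, in corticothalamic neurons, it differed little, with 1027 and 1332 UMIs at 685 and 648 CPM.

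Chrm3 passed 1.5-fold in 3 subclasses with low to middling levels, in both directions. Oligodendrocyte precursors had 316 UMIs (291 CPM) and 106 UMIs (132 CPM), a log2 ratio of -1.14 [-1.47 to -0.82]. In these cells 19.4% of 216 vehicle barcodes and 9.77% of 133 fluconazole barcodes had a UMI, and 1 fluconazole barcode held 39.6% of the UMIs. With free RNA subtracted the log2 ratio was -2.02. Oligodendrocyte precursors also had high background shares, with 6.94% of all genes lower and 6.38% higher by 1.5-fold. The 6 markers of glutamatergic neurons, all detected in both libraries, summed to 138 CPM in these vehicle barcodes and to 68.4 CPM in the fluconazole ones. The GABAergic list (5 of 6 detected in each) was at 2047 and 2274 CPM, the spiny neuron list at 816 and 691 CPM and the oligodendrocyte list at 2005 and 3294 CPM, and the estimated free RNA was 18.3% and 20.8% of UMIs. The part of neuronal RNA in this result was not tested.

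Near-projecting neurons had 30 and 165 UMIs of Chrm3, 93.2 and 371 CPM, spread over 12 and 18 barcodes. The log2 ratio was 1.99 [1.42 to 2.60], or 2.77 with thinned barcodes (from 3 and 18 UMIs alone), in a subclass where 2.7% of all genes were higher by 1.5-fold. A single barcode held 36.7% of the vehicle and 41.8% of the fluconazole UMIs, so the counting interval understates the error. Astrocytes had 45 and 106 UMIs of Chrm3, 21.5 and 44.7 CPM (1.05 [0.54 to 1.59]), but 1 fluconazole barcode held 36 of the 106, the share of barcodes with a UMI was 5.54% and 5.63%, and the mean over barcodes gave a log2 ratio of -0.071. Without that barcode and the top vehicle barcode the ratio was 0.53, and 1.18% of all genes were higher by 1.5-fold in astrocytes. Free RNA was estimated at 17.45% and 17.33% of astrocyte UMIs, and the Chrm3 expected from it exceeded the count in both libraries. The 6 GABAergic neuron markers, all detected, summed to 188 and 76.7 CPM in astrocytes and the 6 glutamatergic ones to 35.9 and 45.1 CPM, and their part was not tested. In layer 2/3 neurons, with 8628 and 8328 UMIs, the log2 ratio of Chrm3 was -0.21 [-0.26 to -0.17], and in Pvalb interneurons -0.56 [-0.76 to -0.35], just under the fold.

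Chrm2 was higher in layer 4/5 Rorb neurons of the fluconazole library, with 58 UMIs (40.7 CPM) and 143 UMIs (70.9 CPM), a log2 ratio of 0.80 [0.35 to 1.27], beside 2.49% of all genes higher by 1.5-fold there. Without barcodes holding UMIs of other classes it was 1.82, from 10 and 35 UMIs. A UMI of Chrm2 was seen in 19.8% and 35.4% of these barcodes, and at 1500 UMIs in 5.99% and 9.55%. In near-projecting neurons, where Chrm2 was highest, the libraries were close (435 and 456 CPM). The gene 9330158H04Rik, which overlaps Chrm2 on the other strand, had 3 and 11 UMIs in the layer 4/5 Rorb neurons.

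Both Adra1 receptors had a higher value in 1 subclass. Adra1a in Vip interneurons had 47 UMIs (124.5 CPM) and 123 UMIs (205 CPM), a log2 ratio of 0.72 [0.22 to 1.24], with 34.1% and 52.8% of barcodes, and the mean over barcodes gave 0.48. In Vip interneurons 2.63% of all genes were higher by 1.5-fold, and in cluster 1 1.88%. Adra1b in glutamatergic cluster 1 had 95 UMIs (30.1 CPM) and 146 UMIs (47.9 CPM), 0.67 [0.29 to 1.06], with 19.8% [15.7 to 24.4] and 36.0% [29.9 to 42.5] of barcodes. The barcodes of both subclasses were deeper in the fluconazole library, and at 1500 UMIs the shares were 14.5% and 21.8% for Adra1a and 1.74% and 5.53% for Adra1b, whose log2 ratio was then 1.67 from 6 and 13 UMIs. The top level of Adra1b, in Vip interneurons, was 122 and 137 CPM.

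The 2 nicotinic genes each had 1 higher value. Chrna7 in spiny cluster 0 had 35 and 70 UMIs, 73.0 and 127 CPM (log2 ratio 0.80 [0.19 to 1.43]), where 5.23% of all genes were higher by 1.5-fold, and in Vip interneurons the ratio was smaller at 0.37. Chrnb1 in endothelial cells, the largest vessel subclass, had 97 UMIs (8.70 CPM) and 160 UMIs (13.2 CPM), 0.60 [0.23 to 0.98], with a UMI in 3.21% [2.59 to 3.91] and 5.27% [4.47 to 6.17] of barcodes. In endothelial cells 1.08% of all genes were higher by 1.5-fold. Chrnb1 was at the edge of the fold, with a log2 ratio of 0.36 under stricter barcode filters and 0.46 with thinned barcodes. Htr2a in the same cells was just under the fold, with 121 UMIs (10.9 CPM) and 197 UMIs (16.3 CPM), a log2 ratio of 0.58 [0.25 to 0.92].

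Adrb1 was higher in microglia of the fluconazole library, below 1.5-fold, with 492 and 608 UMIs, 32.2 and 40.4 CPM and a log2 ratio of 0.33. In layer 5 neurons, where Adrb1 was highest, the libraries were close (44.5 and 45.0 CPM). Of the dopamine genes, Drd2 in indirect pathway spiny neurons had 188 and 241 UMIs and a log2 ratio of 0.18 [-0.10 to 0.47], and Drd1 in spiny cluster 0 had 51 UMIs in each library.

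Among the reported subclasses the receptor gene with the most UMIs was Chrm3 in most neurons, oligodendrocytes and their precursors, Htr2c in near-projecting neurons and spiny cluster 0, Drd2 in indirect pathway spiny neurons, Adra1a in astrocytes, fibroblasts and neuroblasts, Htr2a in endothelial cells, Adra2a in pericytes and Htr1b in smooth muscle cells. Of these leading genes only Chrm3 in oligodendrocyte precursors reached 1.5-fold with at least 100 UMIs. Adra1a, for instance, had a log2 ratio of -0.13 [-0.36 to 0.10] in astrocytes and 0.38 [-0.08 to 0.84] in fibroblasts. Htr1b in smooth muscle cells (45 and 34 UMIs) and Adra2a in pericytes (31 and 26 UMIs) were 1.67 and 1.56 times lower, under the 100 UMIs set for a call.

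Genes that act around the receptors were read from 5 lists in the 2 neuron subclasses with the most barcodes, layer 2/3 neurons and glutamatergic cluster 1. Of the 31 G protein subunits and effectors, 29 and 27 had at least 100 UMIs, with a median log2 ratio of 0.04 and 0.02, against -0.02 and 0.00 over all genes of those subclasses. None passed 1.5-fold in layer 2/3 neurons, and Gnb5, a G protein beta subunit that pairs with RGS proteins, was higher in cluster 1 (103 and 153 UMIs, log2 ratio 0.62). Among 23 genes that end the signal, 17 and 15 were measured, with medians of -0.12 and 0.02. Pde2a, a phosphodiesterase, was higher in layer 2/3 neurons, as were 1.92% of all genes (431 and 766 UMIs, 93.6 and 148.5 CPM, log2 ratio 0.67), and Pde7b in cluster 1 (198 and 314 UMIs, 0.71). The transmitter synthesis and transport list had 4 of 21 genes measured in layer 2/3 neurons, all 4 lower, with a median of -0.25 and none past the fold. In cluster 1 it had 3 measured, 1 higher and 2 lower with a median of -0.08, and in oligodendrocytes 4, all higher. Of the 12 genes for nicotinic receptor assembly 6 and 5 were measured and of the 5 histamine and trace amine receptors 2 and 1, and none passed the fold.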

How the data were processed

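The deposited files hold raw UMI counts per gene and barcode, per the file headers, with no normalization. The submitters' processing notes list mm10, R 4.0.3, Seurat 4.0.0 and Cell Ranger 9.0.0, whereas the matrix header gives Cell Ranger 8.0.1. Of the gene identifiers, 1735 are not in GENCODE vM21, so counting used a later annotation, and no gene coordinates are given for counts. The counting of introns and of strand is not given in the sources used here. In GENCODE vM21, 12 of the 49 members overlap another counted gene on the other strand.

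The members, gene lists, markers and rules were chosen with earlier results of these data known. Kept barcodes had 500 genes or more and a mitochondrial share of 5% or less, with Scrublet doublets left out (574 vehicle, 3.85%, and 514 fluconazole, 4.07%). Of the barcode sequences, 45 occur in both libraries, 30 of them among those kept. Clustering (scanpy 1.11.5, leidenalg 0.10.2) used 2000 variable genes without receptor genes, 30 principal components and 15 neighbours at resolution 1.0, then neurons again, then spiny neurons at 0.5. The spiny step and the naming rule were set after the clusters were seen: a name needed at least 3 markers, each at least 2-fold above other clusters and in 10% of barcodes. The 27 subclasses described, named or unnamed, held 89.0% and 88.3% of kept barcodes. The spiny neuron markers share Ppp1r1b, Rgs9, Pde10a and Gng7 with the signalling lists.

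UMIs were summed per subclass and library and scaled to CPM. Intervals are exact Poisson (levels), Clopper-Pearson (shares) and conditional binomial (ratios) at 95%, computed with scipy 1.17.1 in Python 3.11.15. They were tested only on counts simulated from the same Poisson and binomial models, without UMIs clumped in single barcodes. They cover counting error only: barcodes of 1 library are not replicates. A pair of gene and subclass was called at 1.5-fold with at least 100 UMIs over both libraries. Genes named were those with 100 UMIs in a subclass, each pair past the fold, the leading receptor gene of each subclass, and list members past the fold in the 2 largest neuron subclasses; others are said to be named after their values were seen. For shares at equal depth, barcodes were thinned to 1500 UMIs and shallower ones left out. Free RNA was estimated from markers of other classes. The values of 1 member are not reported here, although it is part of the counts and sums over members.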

Additional observations from a re-analysis of the deposited data

Results flagged for a closer look

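Chrm3 moved in opposite directions between subclasses, and the difference between them was not tested. Its log2 ratio (fluconazole over vehicle) was -1.14 in oligodendrocyte precursors, 1.05 in astrocytes and 1.99 in layer 5/6 near-projecting neurons, each with an interval that excludes no difference. In all 3 subclasses a single fluconazole barcode held over 30% of the Chrm3 UMIs (39.6%, 34.0% and 41.8%). In astrocytes the Chrm3 level lay below the estimated free RNA in both libraries.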

How the results depend on the processing

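No paired analysis was possible because each treatment has 1 library and the labels give no replicate numbers. Counts of calls were recomputed under 10 alternatives and ratios under 9 of them, 3 of them chosen after seeing the data. Chrm3 in astrocytes gave no value with free RNA subtracted, since its level lay below the estimated free RNA in both libraries. Of 107 values of the receptor pairs past the fold, 92 stayed within the counting interval, 13 lay outside in the same direction and 2 changed direction. Those 2 were Chrm3 in astrocytes, at -0.071 as a mean over barcodes and -0.52 without barcodes holding UMIs of other classes. With a minimum of 30 UMIs, 16 pairs were higher and 19 lower by 1.5-fold of 167, and 151 of 1122 pairs of the gene lists passed (13.5%, beside 12.5% of all genes) in place of 41 of 742 (5.53%, beside 4.66%). With barcodes thinned to 1500 UMIs, 1 pair was higher and 2 lower of 22 measured, and without barcodes holding UMIs of other classes 1 was higher and 2 lower of 34: fewer UMIs leave fewer pairs. Barcodes with Drd1 and Drd2 made up 0.322% (vehicle) and 0.0% (fluconazole) of thinned spiny barcodes in place of 2.22% and 1.49%. Htr2c in layer 2/3 neurons ranged from -1.22 to -1.85 over its alternatives, and Chrm3 in oligodendrocyte precursors from -0.74 to -2.02; the cause was not tested. Median-of-ratios scaling moved no subclass by over 0.06 on the log2 scale. The number of genes with the same highest subclass in both libraries, 13 as reported, was 11 to 14. Thinning moved the highest subclass of Chrnb1 to indirect pathway spiny neurons (vehicle) and oligodendrocyte precursors (fluconazole), of Htr1f and Adrb1 to layer 5 and layer 4/5 neurons (fluconazole), of Htr2a to glutamatergic cluster 6 (vehicle), and also those of Adra1a, Htr2b and Htr7. Subtracting free RNA moved that of Adra1a to fibroblasts (vehicle) and that of Htr2b to Sst interneurons (fluconazole). With receptor genes allowed in clustering, Chrm2 and Htr2a were highest in unnamed glutamatergic clusters, Htr2c in indirect pathway spiny neurons, and Htr4 in those (vehicle) or in Vip interneurons (fluconazole), in place of the near-projecting and layer 4/5 neurons. Subclasses were formed and named anew in that setting, and whether each kept its name and barcodes was not compared. Depth limits the 32 sparse members, which allow no comparison of treatments.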
